A study of Homo sapiens with 12 samples.

Results

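THZ531, a covalent inhibitor known for its action on the kinases CDK12 and CDK13, was compared with the vehicle DMSO in THP-1 cells, an acute myeloid leukaemia line with monocytic features and the MLL-AF9 fusion. Of the 12 libraries in the series, 6 entered the comparison, 3 for THZ531 and 3 for DMSO, and every gene with enough counts was described, 15831 of 57002 genes with a row in the table. Cells of both groups had the inhibitor or the vehicle for 2 hours with 1 mM 4-thiouridine, a nucleoside that is built into new RNA, in the closing 10 minutes; no dose is given. The remaining 6 libraries came from cells treated for the same time with AZ5576, known as an inhibitor of CDK9, or with YKL5124, known as an inhibitor of CDK7, and served for direct contrasts with THZ531. The DMSO columns of the table carry the name UT, which no label uses; they were taken as DMSO because each other column bears the name of an inhibitor. Libraries of a group are numbered 1 to 3 with no mention of separate cultures, so each p-value rests on the variation among libraries that could be technical repeats.

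CDK12 and CDK13 each pair with cyclin K and phosphorylate the tail of the largest subunit of RNA polymerase II while it moves along a gene. In other human and mouse cells, loss of CDK12 activity is known for the use of polyadenylation sites inside introns, which gives short transcripts that lack the last exons, and for lower expression of long genes, genes of homologous recombination among them. Such a site is usually preceded by a short signal, AATAAA or ATTAAA, that the cleavage and polyadenylation machinery reads. The libraries were primed on the poly(A) tail, so reads were taken to come from near annotated 3′ ends. Priming at runs of A inside a transcript was not tested. The question here is which ends and which genes were higher or lower after THZ531.

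The 6 libraries held 8611122 to 12518266 human counts with 1 row per gene. On the first principal component the THZ531 libraries lay between -86.9 and -85.4 and all other libraries between 18.7 and 35.6. Human counts per fly count, from RNA of fly S2 cells added to the purified RNA, were 8.64, 8.57 and 9.21 in THZ531 libraries and 8.81, 8.47 and 10.6 in DMSO libraries; the groups overlapped (difference -0.48, two-sided exact permutation test, p = 0.7, where the smallest p possible is 0.1), and without DMSO replicate 3 the difference was 0.17. The ratio divides human counts with 1 row per gene by fly counts over all rows, which overlap. With all rows counted for both species, the difference was -0.94 (two-sided exact permutation test, p = 0.8). Because the fly RNA was added after purification, this ratio says nothing of RNA per cell, and in such bulk samples fewer cells of a type and less RNA per cell cannot be told apart. Of 16 monocytic and granulocytic markers, 15 were tested and their summed level was 1902 to 1959 CPM (counts scaled to a common library size, with sizes adjusted by trimmed mean of M values, TMM) in THZ531 libraries and 1343 to 1456 CPM in DMSO libraries, while CD14 had 1 count in all in THZ531 libraries and 3 in DMSO libraries. Much of the sum was ELANE, with 547 to 599 CPM in THZ531 libraries and 354 to 410 CPM in DMSO libraries. FCGR1A went the other way, with 25.9 to 29.6 CPM and 32.5 to 37.3 CPM. A list of 24 monocyte and granule markers had 13 rises and 2 falls (median log2 fold change 0.24). Scaled by fly counts, 0 of these rose and 6 fell (median -0.12). Of 16 markers of other cell types, 7 had no count in either group, 1 had enough counts to be tested, and their sum was 9.24 to 11.7 CPM in THZ531 libraries and 7.86 to 9.56 CPM in DMSO libraries; their part in the results was not tested.

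After THZ531, most of the genes tested differed from DMSO. At an adjusted p under 0.05, 4817 of 15831 genes were higher (30.4%) and 5215 were lower (32.9%), 63.4% in all. Falls were larger than rises, since 2775 genes (17.5%) were at least 2-fold lower and 669 (4.23%) at least 2-fold higher. TMM places the median gene near 0 (-0.00 on the log2 scale), and all fold changes below are relative to it. Scaled by library size alone the median gene moved to -0.29, and scaled by fly counts it moved to -0.37, with 1116 genes higher and 7355 lower. All 5215 genes that were lower with TMM were also called lower with fly scaling, and all 1116 genes higher with fly scaling were among the 4817. Such nesting nearly follows from moving all genes down by a like amount, and is no separate support for the calls. Rises of modest size therefore depend on the scaling, and the fly-scaled value is given beside each gene list and class compared with DMSO.

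The most direct view of where transcripts ended came from genes in which 2 separate annotated 3′ ends were counted. For 3763 genes the table held an upstream and a downstream end at least 500 bases apart whose counted pieces do not overlap, and the ratio of upstream to downstream counts does not depend on the scaling of libraries. The ratio moved toward the upstream end in 1049 genes (27.9%) and toward the downstream end in 292 genes (7.76%) after THZ531 (limma, adjusted p under 0.05, 35.6% in all). Pairs were chosen by counts over all 12 libraries, so an end used in THZ531 alone could enter; pairs chosen on the AZ5576 and YKL5124 libraries alone gave 892 and 283 of 3558 genes. The last 30 bases of 8 upstream ends, picked for the purpose, show 2 features whose share differs between these groups. Each is found in a minority of its group. The signal was in 41.8% of the upstream ends of genes that moved toward that end. A run of 8 or more A was in 20.9% of those of genes that moved toward the downstream end. The 8 sequences are taken from the GENCODE v29 transcripts on GRCh38, 5′ to 3′ on the strand of the gene. Capitals mark the AATAAA signal in the 6 genes that moved toward the upstream end (WDFY4 to RUNX1), and the longest run of A in the 2 that moved toward the downstream end (TTLL3 and COG2).
WDFY4: ctgtaacaAATAAAtcccatatcctcagta
MED13: atttacaagAATAAAttcattgagtattaa
KMT5B: tctcatAATAAAtgcagcataacgaccatt
FANCA: agtgAATAAAgcactgtgtgatttcctgaa
MICAL3: ttcttatttaagagAATAAAttccaaacaa
RUNX1: ggaaaatttccaAATAAAtctttccagaag
TTLL3: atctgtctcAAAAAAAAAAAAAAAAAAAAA
COG2: cttgttcagttAAAAAAAAAAAAAAAAAAA

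These ends lie at chr10:48736213-48736242 (WDFY4, plus strand), chr17:62010427-62010456 (MED13, minus), chr11:68165715-68165744 (KMT5B, minus), chr16:89798354-89798383 (FANCA, minus), chr22:17860163-17860192 (MICAL3, minus), chr21:34832961-34832990 (RUNX1, minus), chr3:9828133-9828162 (TTLL3, plus) and chr1:230683399-230683428 (COG2, plus). AATAAA or ATTAAA, searched on the transcript strand only, was present in the last 30 bases of 22.3% of all 3763 upstream ends and of 67.4% of the downstream ends. Among genes that moved toward the upstream end it was present in 439 of 1049 upstream ends (41.8%), against 14.4% of the upstream ends of genes without a call and 17.8% of those of genes that moved toward the downstream end. Read the other way, 52.3% of the 840 genes whose upstream end held a signal moved toward that end, and 20.9% of the 2923 genes whose upstream end held none did. A run of 8 or more A in the same window was present in 7.82% of the upstream ends of genes that moved toward the upstream end, in 20.9% of those of genes that moved toward the downstream end and in 6.56% of those of genes without a call. These are matches of letters and do not show that an end was cleaved there. Each row was taken to stand for a 3′ untranslated piece or last exon, 88 bases long in WDFY4 and 4516 in COG2. Its reads therefore need not lie in the last 30 bases.

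Testing each end on its own, with TMM scaling, showed gains and losses together. Unlike the ratio, changes of a single end depend on the scaling, and they were not computed with fly scaling. Among the 1049 genes that moved toward the upstream end, the upstream end rose in 720 and fell in 76, and the downstream end fell in 735 and rose in 106; in 409 genes the upstream end rose while the downstream end fell. The median log2 fold change was 0.86 for their upstream ends and -0.76 for their downstream ends. Among the 292 genes that moved toward the downstream end, the upstream end fell in 221 (median -1.18), while the downstream end rose in 115 and fell in 83 (median 0.09).

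**Figure D1:**
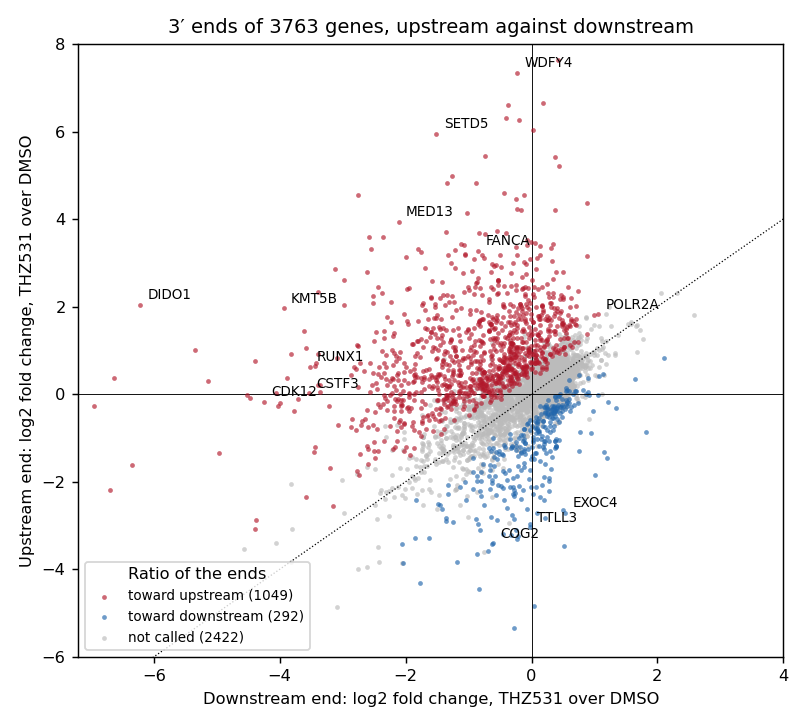
Log2 fold change of the upstream end (vertical axis) against that of the downstream end (horizontal axis) in THZ531 over DMSO, for 3763 genes with a pair of ends; colours give the call on the ratio and the dotted line marks equal change. The 1049 genes called toward the upstream end lie above the line, and the 292 genes called toward the downstream end lie below it. The upper left holds, among others, the 409 of the 1049 in which the upstream end was called higher and the downstream end called lower. These fold changes use TMM scaling, and which of them lie above 0 depends on it.

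Where each end reached a group mean of 5 CPM, DIDO1, which encodes a PHD finger protein of chromatin, had the largest shift. Its upstream end, of a transcript of 6 exons, had 33.1, 32.1 and 35.8 CPM in THZ531 libraries and 8.97, 7.80 and 7.63 CPM in DMSO libraries. Its downstream end, of a transcript of 16 exons 27260 bases further on, had 0.130, 0.110 and 0.107 CPM in THZ531 libraries and 9.04, 8.95 and 10.3 CPM in DMSO libraries. In DIDO1 the counts thus left the downstream end almost wholly, and the log2 ratio changed by 7.82 (SE 0.26, adjusted p = 4.6e-09).

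SETD5, which encodes a SET domain protein of chromatin, used an upstream end that was nearly silent in DMSO. That end had 66.5, 84.8 and 77.9 CPM in THZ531 libraries and 1.48, 0.952 and 1.18 CPM in DMSO libraries, and the downstream end fell to 75.0, 73.5 and 70.1 CPM in THZ531 libraries, against 199, 215 and 209 CPM in DMSO libraries. The log2 ratio changed by 7.46 (SE 0.27, adjusted p = 7e-09), and no replicate of one group overlapped the other at either end. MVB12B, a subunit of the ESCRT-I sorting complex, gave 87.5%, 89.3% and 90.0% of the counts of both ends to the upstream end in THZ531 libraries and 4.38%, 7.47% and 2.88% in DMSO libraries (log2 ratio change 7.34, SE 0.34).

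WDFY4, a gene of dendritic cell antigen presentation, is the case in which the new end is far upstream and the old one barely changed. Its upstream end, 246714 bases before the downstream one and with the signal shown above, had 12.1, 8.93 and 11.4 CPM in THZ531 libraries and 0.0741, 0.00 and 0.0786 CPM in DMSO libraries. Its downstream end had 46.2, 49.5 and 51.9 CPM in THZ531 libraries and 57.6, 54.6 and 61.1 CPM in DMSO libraries (log2 fold change -0.23, adjusted p = 0.0078). SLC16A3, a lactate transporter whose last exon overlaps CSNK1D, had the same form, with an upstream end at 7.03, 6.40 and 5.99 CPM in THZ531 libraries and 0.148, 0.00 and 0.00 CPM in DMSO libraries. ATXN7, a subunit of the SAGA coactivator, was also among the 6 largest shifts at 6.97, but its locus holds a second annotated gene of the same symbol whose own pair of ends gave -0.12 (adjusted p = 0.64).

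Genes that act in transcription were among those with a full exchange of ends. MED13, of the kinase module of Mediator, had 29.7, 36.2 and 38.2 CPM at its upstream end in THZ531 libraries and 2.67, 1.62 and 2.36 CPM in DMSO libraries. At its downstream end, of a transcript of 30 exons, it had 9.24, 9.37 and 8.13 CPM in THZ531 libraries and 40.5, 35.9 and 38.9 CPM in DMSO libraries. KMT5B, a histone H4 lysine methyltransferase, had 97.0%, 97.2% and 98.7% of its counts at the upstream end in THZ531 libraries and 36.7%, 42.1% and 43.1% in DMSO libraries. Neither gene's groups overlapped, and the log2 ratio changed by 6.07 (SE 0.51) in MED13 and by 5.94 (SE 0.29) in KMT5B.

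RUNX1, a transcription factor of blood cell formation, had 13.8, 13.6 and 11.98 CPM at its upstream end in THZ531 libraries and 10.2, 7.23 and 7.86 CPM in DMSO libraries. Its downstream end, 45160 bases away, had 5.86, 6.07 and 5.13 CPM in THZ531 libraries and 63.1, 64.3 and 68.6 CPM in DMSO libraries. The upstream share was thus 69.1% to 70.2% in THZ531 libraries and 10.1% to 13.9% in DMSO libraries, mostly through loss of the downstream end. BCL2, the founding antiapoptotic gene of its family, had an upstream share of 33.7%, 38.1% and 38.3% in THZ531 libraries and 2.95%, 3.09% and 2.22% in DMSO libraries, with ends 190456 bases apart. ZEB2, a zinc finger repressor of myeloid cells, had a share of 97.4% to 97.8% in THZ531 libraries and 71.9% to 75.0% in DMSO libraries.

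**Figure D2:**
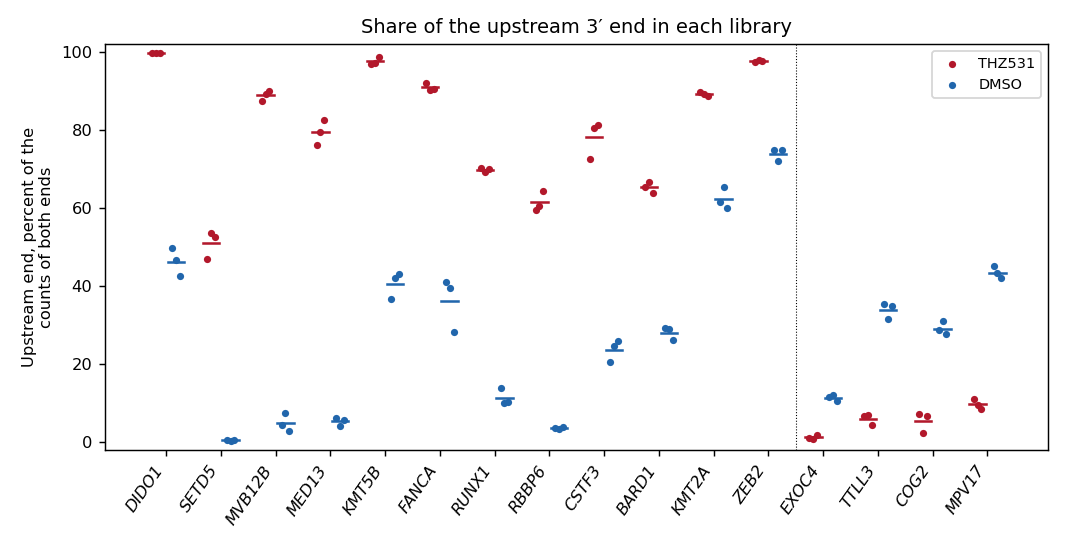
Counts at the upstream end as a percent of the counts at both ends (vertical axis), for each library of 16 genes, with a bar at the mean of 3 libraries; 12 genes left of the dotted line moved toward the upstream end and 4 right of it toward the downstream end. All 16 were picked among genes called on the ratio, and in each the 3 THZ531 and the 3 DMSO libraries do not overlap. The shares in THZ531 against DMSO libraries were 47.0% to 53.6% against 0.441% to 0.740% in SETD5. In TTLL3 they were 4.39% to 6.93% against 31.6% to 35.5%.

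The largest shifts toward the downstream end were smaller than the largest toward the upstream end. By the same conditions the largest was in EXOC4, a subunit of the exocyst, whose upstream end had 0.911, 0.662 and 1.498 CPM in THZ531 libraries and 7.19, 7.04 and 6.29 CPM in DMSO libraries (log2 ratio change -3.28, SE 0.25). TTLL3, a tubulin glycine ligase whose last exon overlaps the read-through gene ARPC4-TTLL3, had an upstream share of 6.82%, 6.93% and 4.39% in THZ531 libraries and 35.5%, 31.6% and 34.9% in DMSO libraries. KIAA0319L, PSMD4, COG2 and MPV17 followed with log2 ratio changes of -3.07, -3.03, -2.84 and -2.77. In these 6 genes the upstream end averaged below 10 CPM in both groups, and it belonged to a transcript annotated with a retained intron in all but KIAA0319L.

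Position and length of the gene went with the direction of the shift. The median upstream end lay at 48.7% of the gene's length in the genes that moved toward it, at 67.9% in those that moved toward the downstream end and at 62.2% in those without a call. The median distance between the ends was 25.4 kb in genes that moved toward the upstream end and 9.47 kb in genes without a call. The share of genes moving toward the upstream end was 10.96% of 356 genes under 10 kb, 14.4% of 485 genes of 10 to 20 kb, 24.3% of 1150 genes of 20 to 50 kb, 33.1% of 841 genes of 50 to 100 kb, 41.0% of 598 genes of 100 to 200 kb and 41.1% of 333 longer genes, whereas the share moving toward the downstream end was between 5.59% and 9.48% in these classes. These classes describe the genes and were not tested against each other.

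The ratio was also compared between THZ531 and the other 2 inhibitors, in contrasts that share the THZ531 libraries with the one against DMSO. In these direct contrasts of the ratio, 1384 genes moved toward the upstream end and 159 toward the downstream end in THZ531 against AZ5576, and 1216 and 232 did in THZ531 against YKL5124. Of the 1049 genes that moved toward the upstream end against DMSO, 892 were called that way in all 3 contrasts. For RUNX1 the log2 ratio change was 4.16 against DMSO, 4.95 against AZ5576 and 4.50 against YKL5124.

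At the level of genes, the row with the highest total stood for each gene. The largest rises and falls were taken among protein-coding genes that passed the test, reached 10 CPM on average in either group, had groups that do not overlap and shared their last exon with no other counted gene. The largest fall was in PPP1R10, a regulatory subunit of protein phosphatase PP1 that binds polymerase-associated complexes. It had 1.17, 1.43 and 1.28 CPM in THZ531 libraries and 98.8, 84.4 and 97.7 CPM in DMSO libraries, or -6.16 on the log2 scale (SE 0.14, adjusted p = 1.9e-24). HRH1, the histamine H1 receptor, had 0.781, 0.551 and 1.07 CPM in THZ531 libraries and 18.1, 20.7 and 22.8 CPM in DMSO libraries. CCDC71, a coiled-coil gene of little known function, had 1.30, 1.32 and 2.14 CPM in THZ531 libraries and 36.5, 33.5 and 37.3 CPM in DMSO libraries. All 3 genes were thus at a few percent of their DMSO level in every THZ531 library. The other falls of this size were in PDE1B (-4.45), a cyclic nucleotide phosphodiesterase, PANK1 (-4.11), a kinase of coenzyme A synthesis, MTRFR (-4.06), a mitochondrial release factor, PAQR8 (-3.88), a membrane progestin receptor, MRM1 (-3.70), a methyltransferase of mitochondrial ribosomal RNA, NOL4L (-3.61, but 0.02 with its rows summed), ZNF557 (-3.55), ZNF623 (-3.54) and CSTF3 (-3.54), a subunit of the cleavage stimulation factor. Groups that do not overlap were a condition of this choice, which 67.0% of all genes tested met.

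The largest rises were mostly rises of an upstream end. IER3, an immediate-early gene, led with 19.9, 23.1 and 23 CPM in THZ531 libraries and 1.63, 2.38 and 1.89 CPM in DMSO libraries (log2 fold change 3.50, SE 0.17, adjusted p = 6.4e-17). The antisense gene IER3-AS1 overlaps it, and without the strand setting of the counting the 2 cannot be told apart. IER5L (2.44) rose without a second counted end. A group of 9, MICAL3 (3.321), FANCA (3.28), FAM118A (3.18), ZC3HAV1 (2.86), COG3 (2.58), CENPK (2.56), SRCAP (2.56), CSNK1E (2.48) and PML (2.39), all moved toward the upstream end, and in all 9 the gene's row was that upstream end. With the row of each gene taken by its DMSO counts alone, 6 of the 9 were lower in THZ531, namely MICAL3 (-1.80), COG3 (-1.57), SRCAP (-1.41), CENPK (-0.89), FANCA (-0.85) and FAM118A (-0.78), so the rise in these 6 genes was that of 1 end.

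FANCA, a subunit of the Fanconi anaemia core complex, shows what this does to a gene-level value. Its upstream end, of a transcript of 10 exons, had 61.1, 65.3 and 58.5 CPM in THZ531 libraries and 7.26, 6.57 and 5.19 CPM in DMSO libraries, while its downstream end, of a transcript of 43 exons, had 5.34, 7.06 and 6.204 CPM in THZ531 libraries and 10.4, 10.1 and 13.2 CPM in DMSO libraries. The downstream end fell (log2 fold change -0.85, adjusted p = 1.9e-05) in a gene whose row rose. In ZC3HAV1, a zinc finger antiviral protein, the upstream end had 636, 680 and 714 CPM in THZ531 libraries and 92.3, 94.2 and 92.2 CPM in DMSO libraries, and the downstream end did not pass the test (0.06, adjusted p = 0.48). Over all genes with a pair, 103 rose at least 2-fold by their gene row; 67 of these moved toward the upstream end, 63 with the gene row at that end, and in 41 the downstream end fell. Falls had the same limit. Of 559 genes with a pair that fell at least 2-fold, 303 moved toward the upstream end. In 293 of these the gene row was not the upstream end, so a gene-level fall can be that of 1 end.

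**Figure D3:**
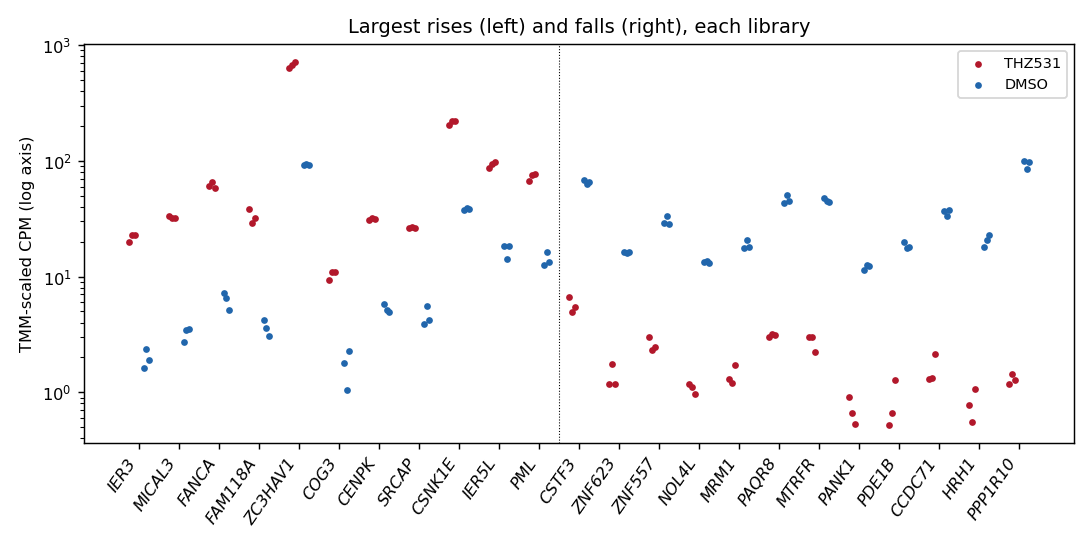
TMM-scaled CPM on a log axis for each library of 11 of the genes with the largest rises (left of the dotted line) and the 12 with the largest falls (right), 3 points per group. The choice of these 23 genes required that the THZ531 and DMSO libraries do not overlap. PPP1R10, at the far right, has 1.17 to 1.43 CPM in THZ531 libraries and 84.4 to 98.8 CPM in DMSO libraries.

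Genes of homologous recombination and the Fanconi anaemia pathway, which repair double-strand breaks and crosslinks, fell as a group. Of 40 tested, 29 fell, 3 rose and 8 did not pass the test, with 18 falls of at least 2-fold. The median log2 fold change was -0.89 (-1.25 with fly scaling), beside 32.9% falls and a median of -0.00 over all genes. Among protein-coding genes of 50 to 100 kb, where the list's median span of 61.5 kb lies, 41.4% fell (median -0.17, and -0.53 with fly scaling). XRCC2, which acts early in homologous recombination, had 6.64, 6.29 and 4.60 CPM in THZ531 libraries and 31.3, 32.3 and 27.3 CPM in DMSO libraries (log2 fold change -2.38, SE 0.13, adjusted p = 7.7e-16). BLM, the helicase of Bloom syndrome, was at -2.14 (SE 0.11) and BARD1, the partner of BRCA1, at -1.73 (SE 0.09). Among genes outside the naming rule and given for their place in the pathway, BRCA1 fell by 0.93, BRCA2 by 2.78, ATR by 0.57 and ATM by 0.76 on the log2 scale; ATR did not pass the test without THZ531 replicate 2 or without DMSO replicate 2 or 3 (-0.52 to -0.38, adjusted p = 0.0508 to 0.142). MRE11 (0.28), a nuclease that opens break ends, and RAD51C (0.57) were higher, besides the upstream end of FANCA; MRE11 was at -0.09 with fly scaling and did not pass the test without THZ531 replicate 3 (0.17, adjusted p = 0.0865), and RAD51C was at -0.27 with its rows summed.

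In 8 of the 18 genes of this pathway with a pair of ends the ratio moved toward the upstream end. This stands beside 27.9% of all pairs and 33.1% of pairs in genes of 50 to 100 kb. In 5 of the 8 the upstream end rose while the downstream end fell. The 1 gene that moved toward the downstream end was BRCA1 (log2 ratio change -1.24, adjusted p = 0.00055), in which both ends fell. BARD1 had an upstream share of 65.4%, 66.6% and 63.9% in THZ531 libraries and 29.2%, 29.1% and 26.1% in DMSO libraries. RAD51C had a share of 76.6% to 80.8% in THZ531 libraries and 54.3% to 56.2% in DMSO libraries, its downstream end at -1.01 (adjusted p = 1.2e-06). In BRCA2 both ends fell, the upstream one by 1.75 and the downstream one by 2.78 on the log2 scale. DNA damage checkpoint genes had 12 falls and 4 rises of 22 (median -0.34, and -0.71 with fly scaling), with RAD17 (-1.11), a clamp loader, CHEK2 (-0.81) and TOPBP1 (-0.77), an activator of ATR, among the falls. CHEK1, the effector kinase of ATR, went the other way with 25.4, 25.5 and 27.3 CPM in THZ531 libraries and 11.7, 13.0 and 13.99 CPM in DMSO libraries (log2 fold change 1.01, SE 0.12), but its row with the highest DMSO counts was at -0.30.

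The targeted kinases themselves are no measure of inhibition, since THZ531 acts on the proteins. CDK13 had 14.2, 12.7 and 11.4 CPM in THZ531 libraries and 26.8, 29.1 and 27.7 CPM in DMSO libraries (log2 fold change -1.13, SE 0.12, adjusted p = 2.6e-09). CDK12 had 74.0, 70.0 and 66.8 CPM in THZ531 libraries and 81.7, 77.9 and 77.9 CPM in DMSO libraries (-0.17, adjusted p = 0.035). CDK12 did not pass the test with DESeq2 (adjusted p = 0.0659), with rows summed (0.0752), with no low count filter (0.0561), with protein-coding genes alone (0.0565) or without THZ531 replicate 3 or DMSO replicate 1 or 3 (-0.19 to -0.15, adjusted p = 0.0539 to 0.115). The row of CDK12 is its upstream end, and its weak downstream end had 0.00, 0.221 and 0.321 CPM in THZ531 libraries and 4.00, 4.00 and 3.54 CPM in DMSO libraries. CCNK, which encodes cyclin K and whose last exon overlaps CCDC85C, was at 0.35 (adjusted p = 0.0018), which is -0.01 with fly scaling. With fly scaling CDK12 and CDK13 fell and CCNK did not rise.

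Genes that form 3′ ends fell more often than they rose. Of 25 cleavage and polyadenylation factors, 14 fell and 9 rose (median -0.27, and -0.64 with fly scaling). The 3 falls with the smallest adjusted p all came with a shift toward an upstream end. CSTF3 had 6.64, 4.96 and 5.46 CPM at its downstream end in THZ531 libraries and 68.0, 62.7 and 65.8 CPM in DMSO libraries, while its upstream end did not pass the test (0.02, adjusted p = 0.86), so that its upstream share was 72.4% to 81.3% in THZ531 libraries and 20.5% to 25.9% in DMSO libraries. RBBP6 (-2.61), a ubiquitin ligase of the complex, had an upstream share of 59.4% to 64.3% in THZ531 libraries and 3.38% to 3.93% in DMSO libraries, although the pair of ends chosen on the AZ5576 and YKL5124 libraries gave a log2 ratio change of -0.69. PCF11 (-2.21), a termination factor that overlaps PCF11-AS1, had a share of 72.0% to 81.0% in THZ531 libraries and 29.5% to 34.7% in DMSO libraries. CPSF6 (0.80), PPP1CA (0.50) and PABPN1 (0.49), which binds poly(A) tails in the nucleus, rose. With fly scaling PPP1CA and PABPN1 did not pass the test.

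Of 16 subunits of Integrator, which cleaves nascent RNA at stalled polymerases, 7 fell and 3 rose (median -0.45, and -0.81 with fly scaling). INTS7 (-2.15), INTS6 (-2.10) and INTS5 (-1.86) fell most, followed by INTS2 (-1.10), INTS14 (-1.09), INTS9 (-0.63) and INTS8 (-0.54). INTS10 had a log2 fold change of 2.02 on a row that is its upstream end, and its downstream end was at -0.30 (adjusted p = 0.0076). INTS12 (0.49) and INTS11 (0.35) also rose, INTS11 being at -0.02 with fly scaling and not past the test without THZ531 replicate 1 (0.27, adjusted p = 0.0579), and INTS1, INTS3, INTS4, INTS6L, INTS13 and INTS15, between -0.51 and 0.29, did not pass the test.

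Polymerase subunits stood apart from these. Of 14 genes of RNA polymerase II subunits, 10 rose and none fell (median 0.35), although with fly scaling 2 rose, 2 fell and the median was -0.02. POLR2A, whose product carries the tail that CDK12 and CDK13 phosphorylate, had 429, 429 and 418 CPM in THZ531 libraries and 197, 208 and 206 CPM in DMSO libraries (log2 fold change 1.06, SE 0.06, adjusted p = 1.9e-15), and POLR2F followed at 0.77. Of 17 genes of NELF, DSIF, the PAF1 complex and other factors of pausing and elongation, 9 rose and 2 fell (median 0.19, and -0.18 with fly scaling). CTR9 (0.66), RTF1 (0.63) and SSRP1 (0.55) were higher, and IWS1 (-0.40) and SUPT6H (-0.27) lower. With fly scaling RTF1 and SSRP1 did not pass the test. SSRP1, IWS1 and SUPT6H are outside NELF, DSIF and the PAF1 complex. Mediator had 15 rises and 12 falls of 32 (median 0.14, and -0.23 with fly scaling), with MED17 (1.59) and MED4 (1.08) against MED9 (-2.12), MED13 (-2.11) and MED29 (-1.11). MED17 was at -0.22 on its row with the highest DMSO counts, and MED13 at 0.18 with its rows summed.

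P-TEFb, the CDK9 kinase that releases paused polymerase, and its 7SK inhibitor complex moved in both directions, with 6 rises and 5 falls of 14 (median -0.04, and -0.40 with fly scaling). HEXIM1, the inhibitor of P-TEFb, had 145, 153 and 159 CPM in THZ531 libraries and 34.6, 33.4 and 35.1 CPM in DMSO libraries (log2 fold change 2.15, SE 0.07, adjusted p = 8.5e-21); HEXIM2-AS1 overlaps its last exon. CCNT2 (0.78), ELL2 (0.62), CCNT1 (0.55), MLLT1 (0.35) and AFF4 (0.31) also rose, though MLLT1 was at -0.01 and AFF4 at -0.05 with fly scaling, and AFF4 did not pass the test without THZ531 replicate 1 (0.22, adjusted p = 0.0825). HEXIM2 (-3.46), MLLT3 (-1.22), MEPCE (-0.98), LARP7 (-0.42) and AFF1 (-0.34) fell, HEXIM2 from a level of only 2.67 CPM in DMSO, and CDK9 (-0.22) and ELL (-0.07) did not pass the test. The CDK7 module of TFIIH had 2 rises of 3, MNAT1 (0.63) and CCNH (0.32), with CDK7 at 0.28 (adjusted p = 0.19), and a median of -0.04 with fly scaling. CCNH was close to the threshold (adjusted p = 0.0481): it did not pass with the replicate block (0.31, adjusted p = 0.0513), with DESeq2 (0.33, adjusted p = 0.0859), with the 6 libraries alone, with rows summed, with either other count filter or by library size (0.03), nor without THZ531 replicate 1, 2 or 3, YKL5124 replicate 2 or DMSO replicate 1 or 3 (0.27 to 0.32, adjusted p = 0.0523 to 0.15).

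Chromatin regulators differed from DMSO in both level and ends. Of 31 KMT2 and SET domain methyltransferase genes, 19 fell and 10 rose (median -0.59, and -0.96 with fly scaling), and their median span was 68.4 kb. In 13 of the 24 with a pair the ratio moved toward the upstream end, 9 of them with the upstream end higher and the downstream end lower, and in 1 toward the downstream end, beside 27.9% and 7.76% of all pairs and 33.1% and 5.59% of pairs in genes of 50 to 100 kb. KMT2A, which is fused to MLLT3 in these cells, had 31.6, 33.9 and 31.7 CPM at its upstream end in THZ531 libraries and 22.5, 23.4 and 24.2 CPM in DMSO libraries. Its downstream end, of the transcript with 36 exons, had 3.65, 4.08 and 4.06 CPM in THZ531 libraries and 14.1, 12.4 and 16.2 CPM in DMSO libraries. Its gene row, at 0.47, is thus the upstream end, and reads from the normal and the fused allele were not separated. The rise of KMT2A did not pass the test with fly scaling, by library size or with rows summed. SETD1B (-2.09), SETD5 (-1.51) and KMT5C (-1.34) had the smallest adjusted p among the falls. KMT5B (1.97) and PRDM2 (1.46), both with a shift toward the upstream end, and EZH2 (0.86), the Polycomb methyltransferase, had the smallest among the rises, though KMT5B was at -3.93 on its row with the highest DMSO counts. Chromatin remodellers had 14 falls and 10 rises of 34 (median -0.12, and -0.49 with fly scaling), with ARID2 (-1.95), PBRM1 (-1.24) and BAZ1B (-0.92) lower. In remodellers 11 of 25 pairs moved toward the upstream end and 1 toward the downstream end, near the 41.0% toward the upstream end among all pairs in genes of 100 to 200 kb, where the list's median span of 100.7 kb lies.

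Transcription factors of myeloid cells and leukaemia had 18 falls, 11 of at least 2-fold, and 9 rises of 33 (median -0.30, and -0.68 with fly scaling). RUNX1 (-3.52), IKZF1 (-1.98), GFI1 (-1.80), a repressor of granulocyte formation, and MYB (-1.53), a regulator of progenitor cells, fell. GFI1 had 101.4, 108 and 100 CPM in THZ531 libraries and 363, 354 and 362 CPM in DMSO libraries. ZEB2 (1.64, its upstream end), HOXA9 (1.00) and HOXA10 (0.91), the homeobox genes of MLL-rearranged leukaemia, rose; other counted genes overlap the last exons of both HOXA genes. MYC (-0.29, adjusted p = 0.12; -0.31 and 0.0498 without AZ5576 replicate 2) and SPI1 (-0.08, adjusted p = 0.42) did not pass the test. Of the 11 genes of this list with a pair of ends, 7 moved toward the upstream end and none toward the downstream end, beside 27.9% and 7.76% of all pairs.

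**Figure D4:**
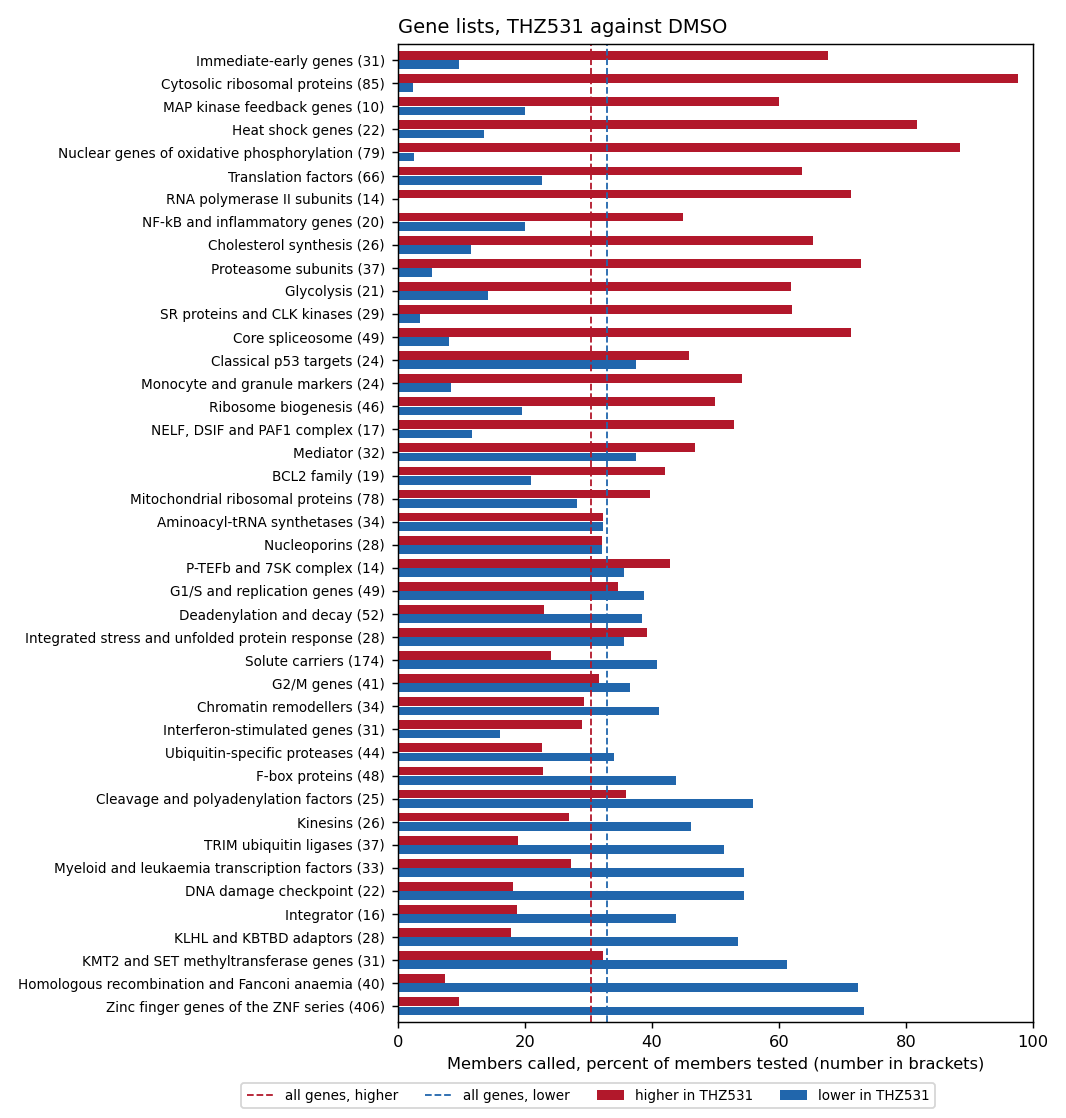
Percent of the tested members of gene lists (horizontal axis) that were higher or lower in THZ531 than in DMSO at an adjusted p under 0.05, ordered by median log2 fold change; brackets give the members tested and dashed lines the percent over all 15831 genes, 30.4% higher and 32.9% lower. Ribosomal protein genes had 97.6% rises, and zinc finger genes 73.4% and homologous recombination genes 72.5% falls.

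Genes of rapid response rose. Of 31 immediate-early genes, which are induced within minutes of a signal, 21 rose, 14 of them at least 2-fold, and 3 fell (median 0.82, and 0.45 with fly scaling). ID2 (1.83), an inhibitor of helix-loop-helix factors, JUNB (1.72), a subunit of AP-1, and IER2 (1.70) were among the rises, and FOSL2 (-1.34), also of AP-1, fell. Of 10 feedback genes of the MAP kinase pathway, 6 rose and 2 fell (median 0.50, and 0.13 with fly scaling). ERRFI1 (2.75, at 2.99 CPM in THZ531 and 0.443 CPM in DMSO libraries), DUSP5 (1.63), DUSP4 (1.41), SPRY2 (0.91), DUSP10 (0.69) and DUSP6 (0.31) rose, DUSP16 (-2.48) and DUSP2 (-0.46) fell, and DUSP7 (0.23) and SPRED2 (-0.28) did not pass the test. DUSP6 was at -0.07 with fly scaling. DUSP2 did not pass with DESeq2 (adjusted p = 0.0872), with rows summed (0.0688) or without THZ531 replicate 1 or DMSO replicate 1 or 2 (-0.46 to -0.38, adjusted p = 0.0542 to 0.0977).

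Heat shock genes had 18 rises and 3 falls of 22 (median 0.48, and 0.11 with fly scaling). HSPA1B, an inducible chaperone whose near-identical copy HSPA1A can share its reads, had 111, 130 and 142 CPM in THZ531 libraries and 36.8, 32.1 and 43.1 CPM in DMSO libraries, and BAG3 (1.20) and HSPH1 (0.88) followed. DNAJB6 (-0.64) and DNAJB1 (-0.62), both with a shift toward the upstream end, fell. Genes of the integrated stress and unfolded protein responses split, with 11 rises and 10 falls of 28 (median -0.10, and -0.46 with fly scaling, where 3 rose and 17 fell). DDIT3, the CHOP transcription factor, whose last exon overlaps MARS1, had 9.24, 7.39 and 6.63 CPM in THZ531 libraries and 42.9, 40.5 and 42.2 CPM in DMSO libraries (log2 fold change -2.45, SE 0.12), whereas SESN2 (1.26) and ASNS (0.88), an enzyme of asparagine synthesis, rose.

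Classical p53 targets had 11 rises and 9 falls of 24 (median 0.25, and -0.12 with fly scaling), in a line known to lack functional p53. PLK2 (2.06), ZMAT3 (1.73), GADD45A (1.03), PMAIP1 (0.75) and BBC3 (0.72) were higher, and the repair genes XPC (-1.30) and DDB2 (-0.89) lower. In the BCL2 family 8 rose and 4 fell of 19 (median 0.09, and -0.28 with fly scaling). BCL2 (-1.94, SE 0.08) and BCL2L13 (-1.50) fell, and BCL2L11 (1.53), the proapoptotic BIM, whose last exon overlaps MIR4435-2HG, rose with PMAIP1 and BBC3, which encode NOXA and PUMA. MCL1, an antiapoptotic gene of short-lived RNA that ADAMTSL4-AS1 overlaps, had a log2 fold change of 0.15 (adjusted p = 0.027) that was -0.21 with fly scaling and -0.14 by library size. MCL1 did not pass the test without THZ531 replicate 1, 2 or 3 or without DMSO replicate 1 or 3 (0.12 to 0.14, adjusted p = 0.0791 to 0.151), with rows summed, with no low count filter or with the 6 libraries alone. NF-kB and inflammatory genes had 9 rises and 4 falls of 20 (median 0.34, and -0.02 with fly scaling), with NFKBIA (0.43) higher and NFKBIE (-1.87), RELB (-0.94) and REL (-0.91) lower.

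Genes of abundant housekeeping proteins rose by modest amounts relative to other genes. Of 85 cytosolic ribosomal protein genes 83 rose and 2 fell (median 0.50, and 0.14 with fly scaling, where 9 rose); the 2 falls were RPL7L1 (-0.32) and RPL39L (-0.24), which are paralogues outside the common ribosome. RPL39L did not pass with DESeq2 (adjusted p = 0.0905), with RLE scaling (0.0564), with rows summed (0.061), with protein-coding genes alone (0.0533) or without THZ531 replicate 1 or 2, YKL5124 replicate 2 or DMSO replicate 1 or 3 (-0.27 to -0.17, adjusted p = 0.0504 to 0.202). RPL24 (0.70), RPL5 (0.63) and RPLP0 (0.61) had the smallest adjusted p. Nuclear genes of oxidative phosphorylation had 70 rises and 2 falls of 79 (median 0.43, and 0.07 with fly scaling), the proteasome 27 and 2 of 37 (0.33, and -0.04), the core spliceosome 35 and 4 of 49 (0.32, and -0.05), translation factors 42 and 15 of 66 (0.37, and 0.01) and the chaperonin CCT 7 and 0 of 8 (0.34, and -0.03). No member of these 6 groups rose 2-fold, and 2 translation factors fell that far, EIF4ENIF1 (-2.68), which carries the cap-binding protein into the nucleus, being one. Of 29 SR protein and CLK kinase genes, which regulate splicing, 18 rose and 1 fell (median 0.32, and -0.04 with fly scaling), with RSRP1 (1.58), CLK1 (1.58) and LUC7L3 (1.06) among the rises.

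Some families of regulatory genes had more falls than the 32.9% of all genes. Of 406 zinc finger genes named ZNF, most of them sequence-specific repressors, 298 fell (73.4%), 222 at least 2-fold, and 39 rose (median -1.13, and -1.49 with fly scaling). ZNF557 had 2.99, 2.32 and 2.46 CPM in THZ531 libraries and 29.3, 33.7 and 28.2 CPM in DMSO libraries. Of the 90 ZNF genes with a pair of ends, 43 moved toward the upstream end and 3 toward the downstream end. This stands beside 27.9% and 7.76% of all pairs. In 20 of the 90 the upstream end rose while the downstream end fell, so falls of gene rows here include losses of 1 end. KLHL and KBTBD adaptors of cullin ligases had 15 falls (53.6%) and 5 rises of 28 (-0.57, and -0.94), with KLHL22 (-2.92) and KLHL20 (-2.59), and TRIM ligases 19 (51.4%) and 7 of 37 (-0.30, and -0.67), with TRIM38 (-1.82) and TRIM11 (-1.76). Ubiquitin-specific proteases were near the share of all genes, with 15 falls (34.1%) and 10 rises of 44 (-0.16, and -0.53), USP37, which acts in S phase, at -3.40. Of their 21 pairs of ends 12 moved toward the upstream end and 1 toward the downstream end, beside 27.9% and 7.76% of all pairs and 33.1% and 5.59% of pairs in genes of 50 to 100 kb, where the list's median span of 75.1 kb lies.

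Gene length, class and level went with these differences. Among protein-coding genes, 414 of 986 that span under 5 kb rose and 267 fell, with a median log2 fold change of 0.15, while 121 of 740 that span 200 kb or more rose and 324 fell, with a median of -0.30. With fly scaling the balance of the short genes turned, 93 rising and 396 falling (median -0.21), and of the long genes 31 rose and 451 fell (median -0.67). The mean log2 CPM of the 4190 genes of at least 50 kb minus that of the 2253 genes under 10 kb was -0.815, -0.810 and -0.818 in THZ531 libraries and -0.586, -0.575 and -0.579 in DMSO libraries. The gap was wider in every THZ531 library, by a difference of -0.23 (two-sided exact permutation test, p = 0.1, the smallest that 3 against 3 libraries allow). Within genes of 50 kb or more, 940 of 2105 with 15 or more exons fell and 388 rose, and 183 of 458 with up to 6 exons fell and 138 rose; with fly scaling 1313 fell and 77 rose in the first of these classes, and 243 fell and 40 rose in the second. Genes of 10 to 50 kb went the other way, with 39.4% falls at up to 6 exons and 28.7% at 15 or more. Under 10 kb these shares were 31.4% and 16.2%. The fly-scaled medians were -0.45 and -0.34 at 10 to 50 kb, and -0.28 and -0.10 under 10 kb. Single-exon genes, with a median span of 2.49 kb, had 40.2% falls and 24.7% rises (median -0.19, and -0.55 with fly scaling).

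Among gene classes, 694 of 1589 long non-coding genes fell and 290 rose (median -0.53), 53 of 92 small nucleolar RNA genes rose and 9 fell (median 0.68) and 741 of 2240 pseudogenes rose and 249 fell (median 0.24). With fly scaling 860 long non-coding genes fell and 166 rose (median -0.89), 37 small nucleolar RNA genes rose and 13 fell (median 0.33), and the pseudogenes turned, 107 rising and 446 falling (median -0.12). Most small nucleolar RNA genes lie in introns of other genes and many pseudogenes copy an abundant parent gene, so the reads of these 2 classes have an uncertain source. By level in DMSO, 2167 of 3958 genes in the highest of 4 equal classes rose and 989 fell, against 589 and 1104 of 3958 in the lowest class. With fly scaling 282 rose and 1566 fell in the highest class (median -0.15), so that its balance turned, and 316 rose and 1474 fell in the lowest. The DMSO libraries set these classes and also enter the fold change, so the classes are a description only.

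**Figure D5:**
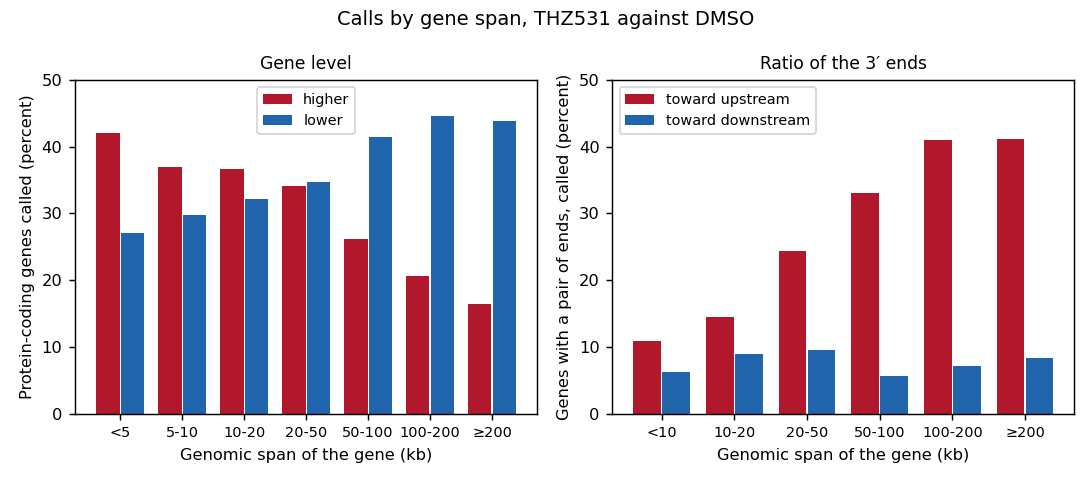
Percent of protein-coding genes higher or lower in THZ531 than in DMSO (left) and percent of genes with a pair of ends whose ratio moved toward the upstream or downstream end (right), by genomic span in kb. With TMM scaling, rises become fewer and falls more frequent from the shortest class, 42.0% and 27.1%, to the longest, 16.4% and 43.8%, whereas with fly scaling falls outnumber rises in the shortest class too, 396 against 93 of 986 genes. Shifts toward the upstream end go from 10.96% of genes under 10 kb to 41.1% of genes of 200 kb or more.

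Direct contrasts set THZ531 against the other 2 inhibitors. Against AZ5576, 4297 genes were higher (27.1%) and 4408 lower (27.8%) in THZ531, 55.0% in all, and 8.51% were at least 2-fold higher and 13.4% at least 2-fold lower. Against YKL5124, 4834 were higher (30.5%) and 4827 lower (30.5%), 61.0% in all, and 6.30% were at least 2-fold higher and 16.5% at least 2-fold lower. The largest differences upward from AZ5576 were in PLK2 (6.44), a kinase of the stress response, SERTAD1 (5.00), MICAL3 (4.92), C11orf96 (4.70) and RGS2 (4.68), a regulator of G protein signalling. Downward from AZ5576 they were in ATXN7L1 (-5.68), PPP1R10 (-4.25), CCDC30 (-4.21), PDE1B (-4.00) and PAQR8 (-3.95). Immediate-early genes were higher in THZ531 in 28 of 31 against AZ5576 and in 28 of 31 against YKL5124, and lower in none of them.

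Against YKL5124 the largest differences upward were in IER3 (5.38), FANCA (3.57), MICAL3 (3.57), ZC3HAV1 (3.55) and PLK2 (3.49), and downward in PPP1R10 (-5.87), ATXN7L1 (-5.64), KRCC1 (-5.56), CCDC30 (-5.05) and PDE1B (-4.87). Genes of homologous recombination were lower in THZ531 in 25 of 40 against AZ5576 and in 25 of 40 against YKL5124, with XRCC2 at -1.89 and -1.70 in THZ531 against AZ5576 and YKL5124, and zinc finger genes were lower in 174 of 406 and 249 of 406. These contrasts share the THZ531 libraries with the one against DMSO, so their counts are not independent of it.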

How the data were processed

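THP-1 cells were profiled by sequencing from the poly(A) tail with the QuantSeq FWD kit, in 12 libraries of 4 groups with 3 each, of which 6 are compared here. The authors deposited whole-number counts per annotated transcript end for human and fly transcripts together. Per the submitters' processing notes, bcl2fastq 2.17.1.14, Trim Galore 0.6.5 and edgeR 3.32.1 were used, and the builds named are hg38 and dm6. No source used here gives the aligner, how reads were counted, whether strand was used or which annotation. Fly RNA was added at 5% after purification, per the labels' protocols. New and older RNA are not separated in these counts.

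Human rows were named by GENCODE v29 (251529 of 256726 rows; the 5197 others held 0.655% to 0.719% of counts). The row with the highest total stood for each gene, and 94 genes with counts identical to another's were dropped. Genes that passed filterByExpr (minimum count 10) were fitted with edgeR 4.0.16 in R 4.3.3, by the quasi-likelihood test on all 12 libraries with only the group in the model, after scaling by trimmed mean of M values (TMM). The p-values were adjusted by the Benjamini-Hochberg method, with a threshold of 0.05. Standard errors are the log2 fold change divided by the square root of F. For pairs of ends (means of at least 10 counts and at least 500 bases apart), log2 of upstream over downstream counts, with 0.5 added to each, was fitted with limma 3.58.1. The test of each end alone, the direct contrasts of the ratio and the pairs chosen on other libraries were added after seeing the data. Single values were compared by two-sided exact permutation tests (scipy 1.17.1). The fits were tested on simulated data. Alternatives covered scaling, DESeq2 1.42.0, filters, the row per gene, the replicate block and leaving out each library.

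Named genes were the 12 largest rises and falls, 3 members per direction of each list by adjusted p (all members of lists of up to 16), the 6 largest shifts of ends each way, the 5 largest differences each way from the other inhibitors, and a preset group of kinases and leukaemia genes. BRCA1, BRCA2, ATM, ATR and some pairs of ends were named outside this rule. Some genes and 1 gene list that the rule names are not reported here. The members and lists were chosen with earlier results of these data known.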

Additional observations from a re-analysis of the deposited data

How the results depend on the processing

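Higher calls depended on scaling: against DMSO they numbered 2193 by library size and 1116 with fly scaling, against AZ5576 2299 with fly scaling, and against YKL5124 2366 by library size and 1677 with fly scaling. Pairs with a mean of at least 30 counts gave 849 calls, 649 toward the upstream end, of 2144 tested, a share of 39.6% against 35.6%. Leaving out 1 library gave 9193 to 10213 genes changed against DMSO, 921 to 1092 pairs toward the upstream end, 205 to 318 toward the downstream end, a length gap of -0.238 to -0.232 and a human to fly difference of -0.89 to 0.17, which was above 0 without DMSO replicate 3.

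The replicate numbers did not pair the libraries (correlation of deviations -0.068 to 0.049), and the replicate block gave 9961 genes changed against DMSO, against 10032 without it, and 1310 pairs, against 1341.

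Of 161 named genes called, 138 kept direction and call with fly scaling, 149 by library size, 151 with the row of the highest DMSO total, 151 with rows summed and 157 with DESeq2. With the row of the highest DMSO total, MICAL3 (-1.80), COG3 (-1.57), SRCAP (-1.41), CENPK (-0.89), FANCA (-0.85), FAM118A (-0.78), CHEK1 (-0.30), INTS10 (-0.29), MED17 (-0.22) and KMT5B (-3.93) reversed. With rows summed, MED13 (0.18), NOL4L (0.024), RAD51C (-0.27), ELL (0.0091) and SPRED2 (0.47) did. With fly scaling, MRE11 (-0.086), AFF4 (-0.051), CCNK (-0.012), INTS11 (-0.020), MLLT1 (-0.0098), CDK7 (-0.084), CCNH (-0.045), DUSP6 (-0.065), MCL1 (-0.21) and DUSP7 (-0.14) did, and by library size MRE11 (-0.011), CDK7 (-0.0084), MCL1 (-0.14) and DUSP7 (-0.058). Another 15 genes kept their direction but lost their call with fly scaling. These were CCNT1, DUSP10, ELL2, GPI, INTS12, KMT2A, MNAT1, NFKBIA, PABPN1, PPP1CA, RAD51C, RPL5, RPLP0, RTF1 and SSRP1. RBBP6 had a ratio change of -0.69 with pairs chosen on the AZ5576 and YKL5124 libraries. The causes were not tested. A change of scaling moves all genes of a library alike, but each library by its own amount. No named gene reversed on leaving out 1 library, and 9 lost their call.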

Other observations

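Genes of the cell cycle moved in both directions, with more falls than rises under fly scaling. Of 49 G1/S and replication genes 17 were higher and 19 lower in THZ531 than in DMSO (median log2 fold change -0.09; 4 higher and 27 lower with fly scaling), PCNA (0.78), the replication clamp, and RFC3 (0.98) against POLA2 (-1.43) and MCM10 (-1.18). Of 41 G2/M genes 13 were higher and 15 lower (median -0.12; 4 higher and 26 lower with fly scaling), UBE2C (0.79) against CCNF (-1.85). Of 26 genes of cholesterol synthesis and uptake 17 rose and 3 fell (median 0.34, and -0.02 with fly scaling), STARD4 (1.08), which carries cholesterol between membranes, against MVK (-1.22), an enzyme of the pathway. Of 21 glycolysis genes 13 rose and 3 fell (median 0.32, and -0.04 with fly scaling), GAPDH (0.70) and GPI (0.62) among the rises.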
